A study of Mus musculus with 15 samples.

Results

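The 32 genes described here carry glucose through glycolysis to lactate or into the mitochondrion. They encode 2 glucose transporters, 3 hexokinases, 7 further enzymes of upper glycolysis, 6 of lower glycolysis, 4 lactate dehydrogenases and monocarboxylate transporters, 5 regulators, and 5 proteins that bring pyruvate into mitochondria and convert it to acetyl-CoA. They were chosen by gene symbol in a deposited table of 23420 genes. Of the 32, 30 were above 0 in at least 3 of the 15 libraries and were tested among 11190 such genes. Hk3 was listed at 0 in every library, and Ldhb was above 0 only in Fraction 3 replicate 2.

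Glycolysis splits glucose into pyruvate in the cytosol. Lactate dehydrogenase reduces pyruvate to lactate, which leaves the cell through monocarboxylate transporters, while the mitochondrial pyruvate carrier and the pyruvate dehydrogenase complex feed pyruvate to the tricarboxylic acid (TCA) cycle. Germinal centre B cells divide and mutate their antibody genes in the dark zone and are selected with T cell help in the light zone, and some leave as plasmablasts, which secrete antibody.

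RNA was measured in mouse B cells of 5 sorted groups, with 3 libraries each and 100 cells per library. The dark zone cells (DZ) were gated as B220+ CD45.1+ CD38lo GL7hi and CXCR4hi CD86lo. The 3 light zone groups shared the first part of that gate and were CXCR4lo CD86hi. Fraction 3 was Bcl6hi CD69lo, Fraction 2 was Bcl6hi CD69hi and Fraction 1 was Bcl6lo CD69hi. These 4 groups descended from B1-8hi (KI/+) Bcl6-YFP (KI/+) donor B cells. The germinal centre derived plasmablasts (GC-PB) were CD45.1+ CD138hi CD44hi tdTomato+ and descended from donor B cells with B1-8hi (KI/+), the transgene S1pr2-ERT2cre and ROSA-Ai14 (KI/+). In that line tamoxifen activates a Cre driven by S1pr2, a gene of germinal centre B cells, which switches on the tdTomato reporter. The B1-8hi knock-in antigen receptor was shared by all donor cells, and all hosts were C57BL6 mice given NP-CGG in CFA. Only the hosts of the GC-PB donor cells received tamoxifen, on days 6, 7 and 8, and every group was sorted from draining lymph nodes on day 12. The age of the mice is not given in the sources used here. The replicates are separate library preparations with no statement on animals, so p-values cover only library-to-library spread, which can be technical.

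The deposited values are a signal per gene whose unit and scaling the sources used here do not state. Values in a library were mostly whole multiples of 1 constant and are read here as molecule counts times that constant. On this reading a library held 184103 to 376992 molecules over 9185 to 10132 genes above 0. The deposited totals ran from 27942 to 115088, so the levels below are values rescaled to equal library totals, with the ribosomal precursor Rn45s left out of the total. At this scale 1 molecule was worth 0.107 to 0.233. Changes are differences of log2(level + 1) ± SE from limma, which understate the fold change of low genes. A gene was called higher or lower where its p, adjusted over all 11190 genes by the Benjamini-Hochberg method, was under 0.05. In these bulk samples, fewer cells of a type and less RNA per cell cannot be told apart.

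The libraries fell into 2 sets that the sort gates do not define. Xist, which is transcribed from the inactive X chromosome, was at 8.94 to 14.4 in every Fraction 1 library and every GC-PB library, and at 0 in the DZ, Fraction 3 and Fraction 2 libraries. The Y-linked Ddx3y was at 0 to 0.0406 in the first set and at 3.91 to 6.21 in the second. The deposited scale differed between the same sets. Its constant was 0.305 to 0.362 in the first set and 0.105 to 0.139 in the second. Deposited totals were 65535 to 115088 in the first set and 27942 to 41955 in the second. The step from Fraction 2 to Fraction 1 crosses this divide, so that the divide and the sorted state cannot be told apart there. The other 3 steps do not cross it, although GC-PB also differs from Fraction 1 in donor line and tamoxifen. Of the 32 genes, Pgk1, Pdk3 and Pdha1 lie on the X chromosome. The plasmablast markers summed to 2900 to 4176 in GC-PB libraries, against 29.8 to 76.5 in the other libraries, and Bcl6 was at 0 in GC-PB. The T cell markers Cd3e and Cd4 and the myeloid markers Itgam, Fcgr1 and S100a8 were at 0 in all 5 groups. The summed T cell list was 9.71 to 11.4 in GC-PB libraries, where Cd28 stood at 9.90 ± 1.38 (SD, n = 3), and 1.59 to 5.88 in the others. Of its 2 tested genes, Cd28 was higher in GC-PB than in Fraction 1 (3.34) and Lck was lower (-1.91). In Fraction 3 only Lck of that list was above 0. It was called higher there than in DZ (0.93), a call lost whenever a library of either group was left out. The follicular dendritic cell and stroma list summed to 0.481 to 1.93 in GC-PB, 11.8 to 16.2 in Fraction 1 and 1.17 to 11.1 in the other groups, nearly all of it Fcer2a, which B cells also express, with Col1a1, Col1a2 and Pdpn at 0 throughout. The part of these lists in the results below was not tested.

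The summed level of the 32 genes was higher in each light zone fraction along the order of the sort and lowest in the plasmablasts. It was 215, 191 and 210.2 in the DZ libraries, 233, 216 and 227 in Fraction 3, 262, 251 and 261 in Fraction 2, 303, 294 and 294 in Fraction 1 and 103, 139 and 117 in GC-PB. From DZ to Fraction 1 the libraries of each group lay above all libraries of the group before, and the 3 GC-PB libraries lay below the other 12. As a mean share of the library total, the genes took 0.532% in DZ, 0.584% in Fraction 3, 0.668% in Fraction 2, 0.769% in Fraction 1 and 0.310% in GC-PB. The order was the same without Gapdh and Ldha, when the sums averaged 110.4 ± 7.19, 122 ± 6.61, 145 ± 6.04, 168 ± 2.31 and 79.1 ± 7.04 in the same order of groups (SD, n = 3 each). At the deposited scale the mean sums were 162, 169, 258, 815 and 204, so that GC-PB then stood above DZ and Fraction 3 and no longer last. The sum was not tested.

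**Figure D1:**
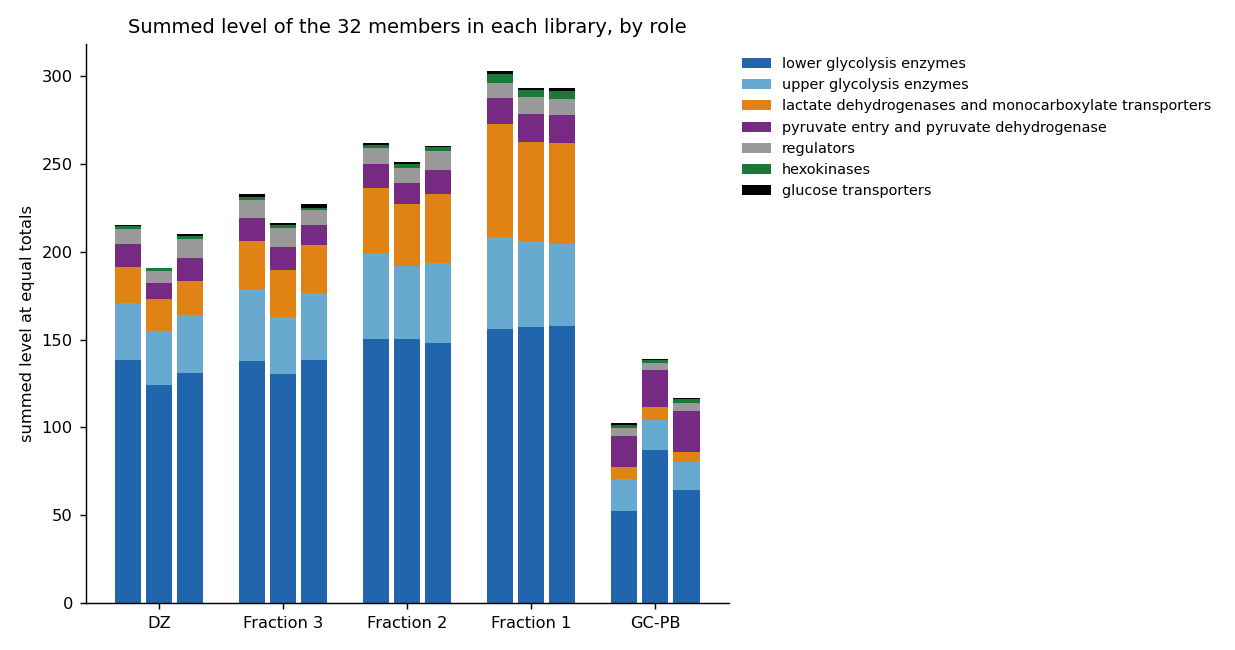
Summed level of the 32 genes at equal library totals (y axis) in each of the 15 libraries (bars, 3 per group), stacked by role. The lactate dehydrogenase and monocarboxylate transporter segment averaged 6.68 ± 0.653 in GC-PB and 59.4 ± 4.23 in Fraction 1, while the pyruvate entry segment averaged 20.9 ± 2.97 in GC-PB and 15.7 ± 0.666 in Fraction 1 (SD, n = 3).

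Early in the series few members moved. In Fraction 3 against DZ, 1 member was higher (Ldha) and none lower, where 1.05% of all tested genes were called (0.572% higher, 0.483% lower). That call was lost in 11 of 16 other settings, among them when any 1 of the 6 libraries was left out. In Fraction 2 against Fraction 3, limma called 0 of 30 members, where 0.688% of all tested genes were called. At an unadjusted p under 0.05 there were 8 members, 7 of them higher, against 11.2% of all tested genes, and no other tool was run. With only the libraries of both groups in the fit, 3 members were called higher, and at the deposited scale 5 were, where the median over all tested genes was 0.15. Over both steps together, in Fraction 2 against DZ, 6 members were higher and none lower (Ldha, Tpi1, Pfkl, Pfkp, Aldoa and Pkm), where 3.5% of all tested genes were called (1.66% higher, 1.84% lower). Without Fraction 2 replicate 1 or replicate 3, 3 members were called in this comparison. The median change of the 30 members in Fraction 2 against DZ was 0.25, beside 0.01 over all tested genes.

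In Fraction 1 against Fraction 2, 4 members were higher (Hk2, Ldha, Pgam1 and Slc16a1) and none lower, where 9.03% of all tested genes were called, 3.79% higher and 5.25% lower. Without Fraction 2 replicate 3 or Fraction 1 replicate 2, 2 members were called. The median change of the 30 members was 0.09, beside -0.04 over all tested genes. At the deposited scale, where the median over all tested genes was 0.64, 24 members were called higher and none lower. Of all genes called in this comparison, 424 of 1011 were higher at equal totals, 521 of 912 at a median ratio scale and 6120 of 6183 at the deposited scale.

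The plasmablasts stood apart from Fraction 1 in most of the pathway. In GC-PB against Fraction 1, 16 members were lower and 1 was higher (Mpc2), while 13 were not called. Of all tested genes, 36.3% were called, 22.3% lower and 14.1% higher. The median change of the 30 members was -0.74, beside -0.06 over all tested genes, which had quartiles of -0.44 and 0.20. With only genes above 0 in at least 6 libraries, the median over all tested genes was -0.10. Here and in the other comparisons, members and all tested genes were not matched for level, which bears on medians and shares called. At a median ratio scale the same numbers of members were called in each direction, and 2087 of 4047 called genes were higher, against 1573 of 4064 at equal totals. At the deposited scale 23 members were lower and 1 higher, and the median over all tested genes was -0.42. The members added there, all lower, were Slc2a1, Slc2a3, Slc16a3, Pdk1, Pdk3, Dlat and Mpc1. For 11 members all 3 GC-PB libraries lay below the 12 others, as they did for 13.3% of all tested genes.

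**Figure D2:**
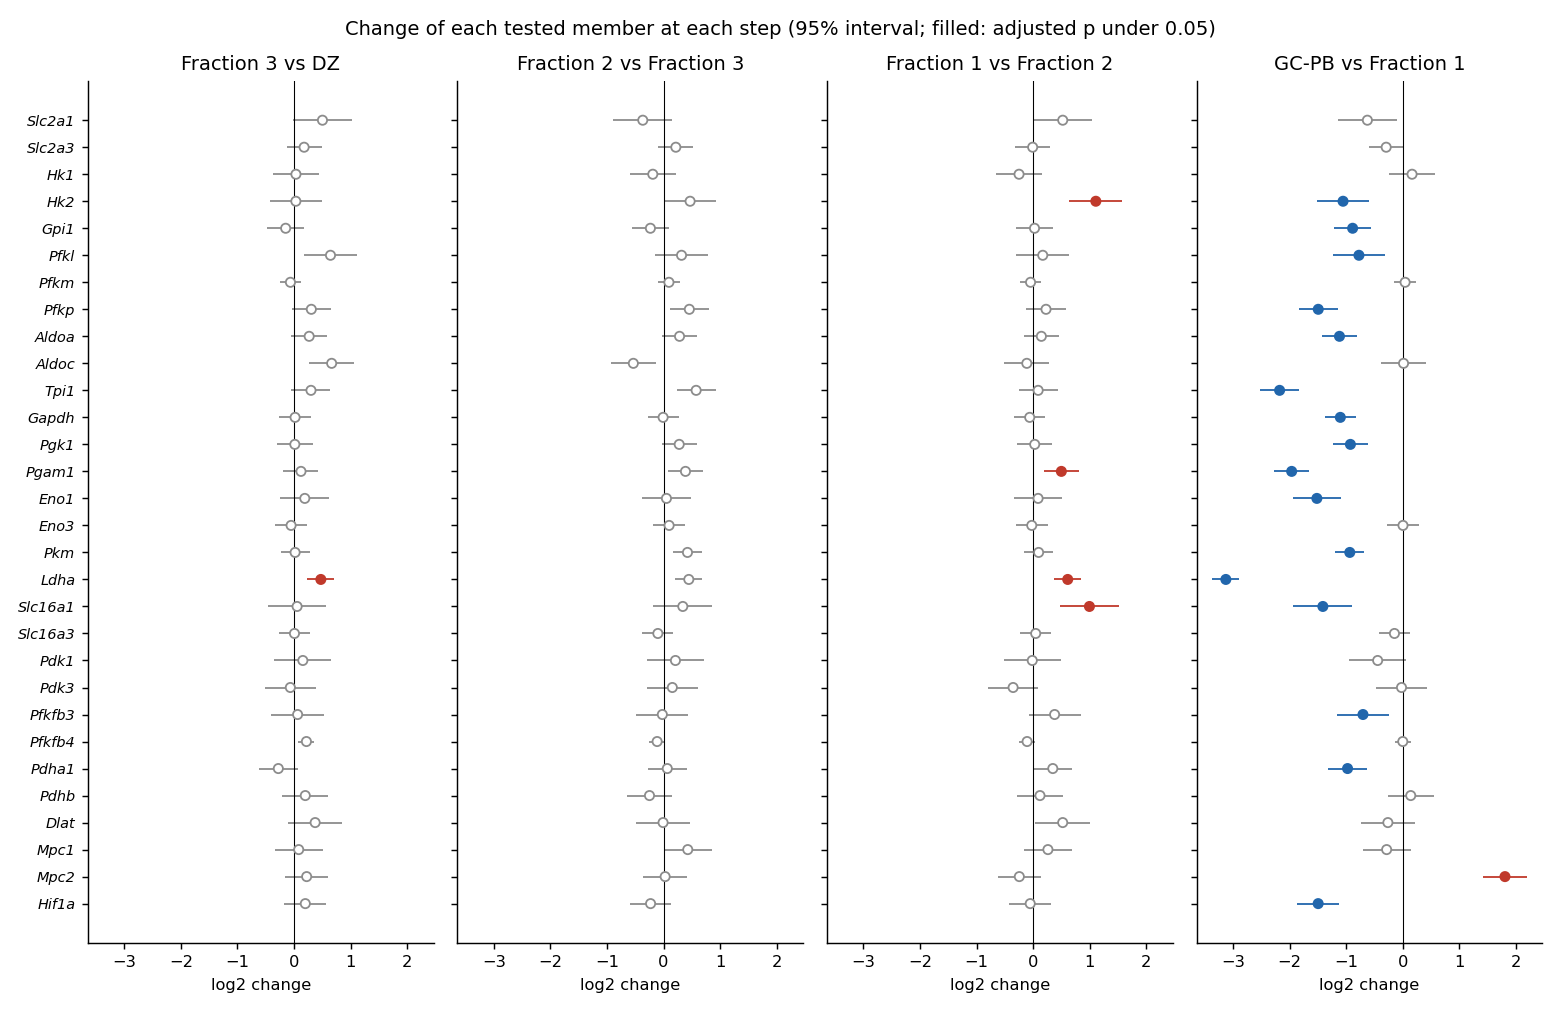
Log2 change (x axis) of each of the 30 tested members (rows) at the 4 steps, with 95% intervals; filled points passed an adjusted p of 0.05, red for higher and blue for lower. Filled points number 1, 0, 4 and 17 from left to right, and the last panel holds 16 lower points and, on the right, Mpc2.

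The sequences just upstream of 5 of these genes are shown because these genes hold the calls of higher members at the last steps. They are Ldha, Hk2, Slc16a1 and Pgam1, higher in Fraction 1 than in Fraction 2, and Mpc2, higher in GC-PB than in Fraction 1. They were chosen after their values were seen. Each sequence is the 250 bases before a RefSeq start on GRCm38.p6, 5′ to 3′ on the gene's strand. Capitals mark ACGTG or GCGTG on either strand, the core letters of hypoxia response elements bound by Hif1a, and CACGTG, an E-box that Myc proteins can bind and that contains ACGTG.
Ldha: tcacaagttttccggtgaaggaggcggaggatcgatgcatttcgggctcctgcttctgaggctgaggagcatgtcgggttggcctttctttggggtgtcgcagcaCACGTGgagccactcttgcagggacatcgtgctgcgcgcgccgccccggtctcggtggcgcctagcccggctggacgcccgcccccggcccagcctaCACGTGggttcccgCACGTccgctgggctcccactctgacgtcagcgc
Hk2: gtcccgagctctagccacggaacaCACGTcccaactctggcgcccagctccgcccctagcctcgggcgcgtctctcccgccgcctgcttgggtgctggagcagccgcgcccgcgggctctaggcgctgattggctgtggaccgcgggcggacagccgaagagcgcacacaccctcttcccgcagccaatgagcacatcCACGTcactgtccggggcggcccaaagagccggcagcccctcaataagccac
Slc16a1: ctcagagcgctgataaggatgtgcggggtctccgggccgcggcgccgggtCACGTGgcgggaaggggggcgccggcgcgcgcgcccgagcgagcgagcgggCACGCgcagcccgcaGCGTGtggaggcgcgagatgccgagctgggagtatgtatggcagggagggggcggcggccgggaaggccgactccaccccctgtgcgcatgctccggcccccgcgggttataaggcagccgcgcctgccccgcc
Pgam1: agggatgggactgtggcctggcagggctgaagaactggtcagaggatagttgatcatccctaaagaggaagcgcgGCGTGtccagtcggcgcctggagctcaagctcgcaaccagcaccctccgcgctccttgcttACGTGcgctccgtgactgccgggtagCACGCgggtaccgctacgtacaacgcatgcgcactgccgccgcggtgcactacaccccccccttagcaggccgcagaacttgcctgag
Mpc2: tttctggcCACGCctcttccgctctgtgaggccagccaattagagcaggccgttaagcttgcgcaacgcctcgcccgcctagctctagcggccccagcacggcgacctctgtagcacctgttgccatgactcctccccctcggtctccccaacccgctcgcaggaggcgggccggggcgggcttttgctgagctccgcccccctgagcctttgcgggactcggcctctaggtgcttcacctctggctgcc

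These windows lie at chr7:46845554-46845803 (plus strand) for Ldha, chr6:82774455-82774704 (minus strand) for Hk2, chr3:104638414-104638663 (plus strand) for Slc16a1, chr19:41911621-41911870 (plus strand) for Pgam1 and chr1:165461010-165461259 (plus strand) for Mpc2. GENCODE places the windows of Hk2, Slc16a1 and Pgam1 just outside the 5′ end of the gene, and those of Ldha (gene at chr7:46841475-46855627) and Mpc2 (gene at chr1:165460637-165481214) within the gene span, downstream of an earlier annotated start. The Ldha window holds CACGTG at 145 and at 48 bases before the start, counted from the motif's 5′-most base, and a further ACGTG on the minus strand 34 bases before it. A second RefSeq start of Ldha, further along the gene, has 1 GCGTG upstream and no CACGTG. The bases just after this second start were found in GENCODE transcripts of Ldha. For the windows shown, this held for Hk2, Slc16a1 and Mpc2, but not for Ldha and Pgam1. Slc16a1 has 1 CACGTG and 2 GCGTG, Pgam1 has 1 ACGTG and 2 GCGTG, Hk2 has 2 ACGTG, and Mpc2 has 1 GCGTG, 242 bases before its start. Over the 45 RefSeq starts of the 31 members with an entry, 18 windows (40%) held ACGTG, against 16.6% of all 32851 windows and 22.5% of the 10451 windows of tested genes. Windows of 1 gene can overlap and share a match, as in Aldoa, so windows are not separate units. The 18 windows belong to 15 members, among them Hk3, which was not tested. GCGTG was in 55.6% of member windows, against 28.2% of all windows and 45.5% of those of tested genes. CACGTG was in 5 member windows (11.1%), against 6.02% and 8.57%. These are matches of letters, and binding was not measured.

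Glucose transporters were sparse. Slc2a1, the main glucose transporter of activated lymphocytes, stood at 0.320, 0.276 and 1.01 in DZ, 0.868, 0.876 and 1.76 in Fraction 3, 0.722, 0.692 and 0.547 in Fraction 2, 1.76, 0.860 and 1.60 in Fraction 1 and 1.16, 0.394 and 0.207 in GC-PB, from 1 to 15 molecules per library. The Fraction 1 libraries lay above those of Fraction 2, and the GC-PB and Fraction 1 values overlapped. No step passed the test, and GC-PB against Fraction 1 came closest (-0.63 ± 0.25, adjusted p = 0.0576, limma), a change that was called without Fraction 1 replicate 2 (adjusted p = 0.0310) or GC-PB replicate 1 (adjusted p = 0.0106). Slc2a3, a second transporter of high glucose affinity, had at most 5 molecules in a library and no step passed, although GC-PB against Fraction 1 was called without GC-PB replicate 3 (-0.46, adjusted p = 0.0173).

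Hexokinases trap glucose in the cell as glucose 6-phosphate. Hk2, the inducible form, stood at 4.47, 3.44 and 4.43 in Fraction 1, against 0.843, 1.50 and 1.86 in Fraction 2. The groups did not overlap, the mean level was 2.94 times as high, and the change was 1.11 ± 0.22, adjusted p = 0.00294 in limma. It was also called in all 16 other settings, with adjusted p from 2.06e-07 to 0.0248. In GC-PB Hk2 was at 1.16, 1.77 and 1.45, all below Fraction 1 (-1.06 ± 0.22, adjusted p = 0.0007). DZ libraries held 0.480, 0.552 and 1.01 and Fraction 3 libraries 1.16, 0.701 and 0.352, so the plasmablast levels lay at or above the top of these 6. Hk1, the constitutive form, had means from 0.387 to 0.885 and no step passed. Of the molecules of both genes, Hk2 made up 44.3% ± 14.2 in DZ, 43.4% ± 16.7 in Fraction 3, 66.6% ± 13.6 in Fraction 2, 91.4% ± 0.916 in Fraction 1 and 71.9% ± 17.3 in GC-PB (SD, n = 3 each), from 7 to 42 molecules per library.

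**Figure D3:**
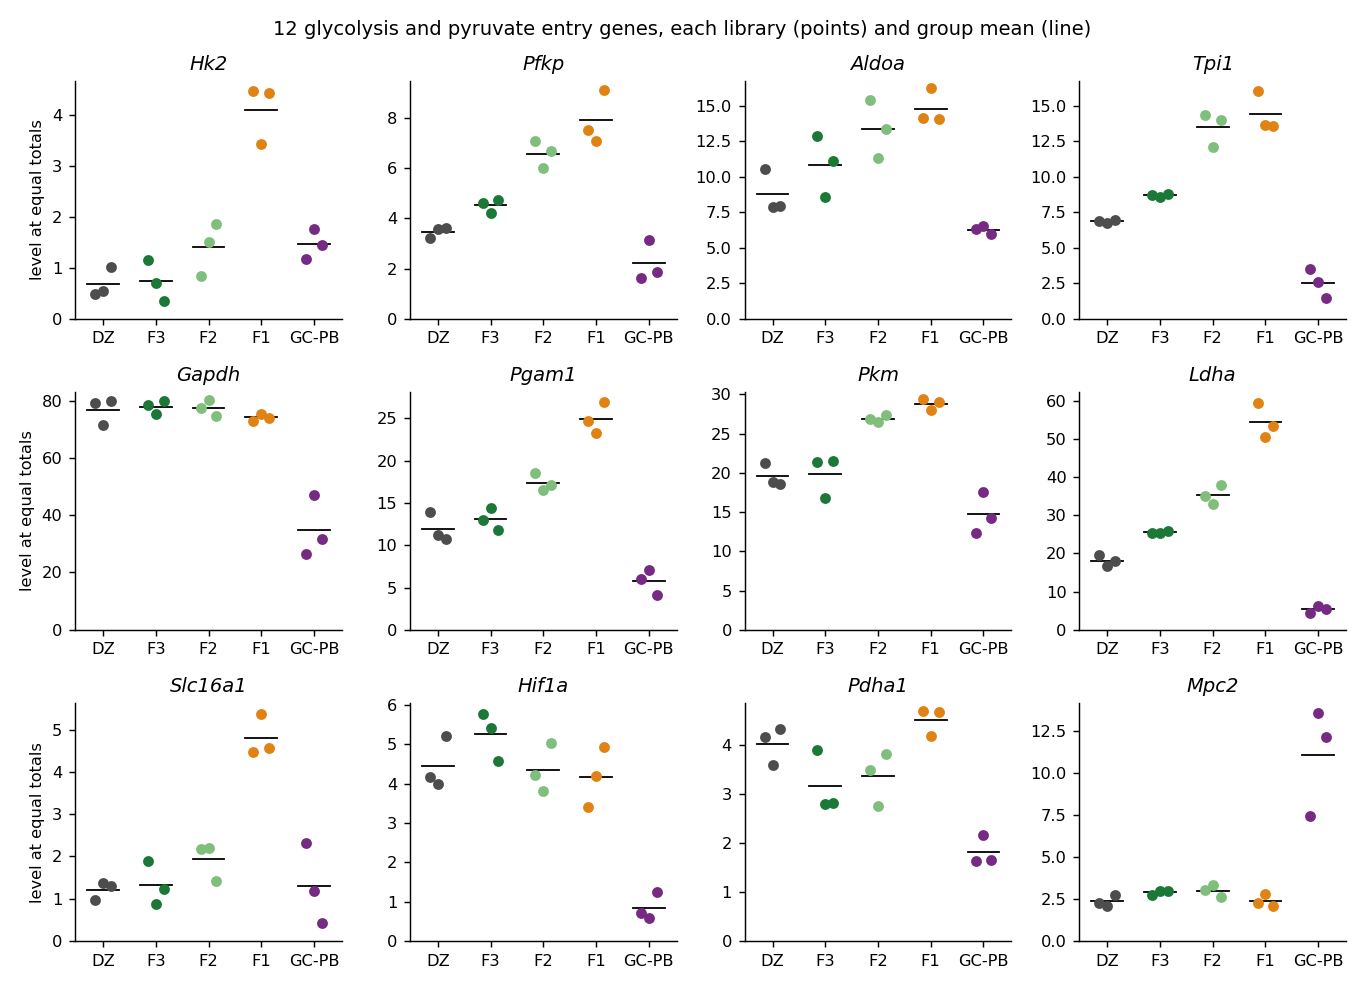
Level at equal library totals (y axes, from 0, on a separate scale for each gene) of 12 members in each library (points) with the mean of each group (lines); F3, F2 and F1 are Fraction 3, Fraction 2 and Fraction 1. Ldha climbs from group to group up to Fraction 1, Gapdh is level over the first 4 groups at this scale (at the deposited scale Fraction 1 stands above Fraction 2), and Mpc2 alone of the 12 is highest in GC-PB.

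In upper glycolysis, 4 of 7 enzymes were higher in Fraction 2 than in DZ, where 1.66% of all tested genes were, and 5 of 7 were lower in GC-PB than in Fraction 1, where 22.3% were. Phosphofructokinase commits sugar to glycolysis. Its platelet-type subunit Pfkp stood at 7.10, 6.00 and 6.67 in Fraction 2, against 3.20, 3.59 and 3.62 in DZ (0.76 ± 0.17, adjusted p = 0.0114), with no overlap, and the call was lost without Fraction 2 replicate 1 (adjusted p = 0.0622). Fraction 3 lay between them at 4.63, 4.20 and 4.75, without overlap on either side, and Fraction 1 reached 7.53, 7.09 and 9.11. In GC-PB it was at 1.63, 3.15 and 1.86, below all other libraries (-1.49 ± 0.17, adjusted p = 3.07e-07 against Fraction 1). The liver-type subunit Pfkl was at 2.05, 2.77 and 2.52 in Fraction 2, against 0.480, 0.966 and 0.868 in DZ (0.96 ± 0.22, adjusted p = 0.0162). This call was lost without DZ replicate 1, Fraction 2 replicate 2 or Fraction 2 replicate 3, at adjusted p of 0.0687 to 0.0848. Pfkl fell in GC-PB to 1.86, 0.788 and 1.24, against 3.18, 3.12 and 2.34 in Fraction 1 (-0.77 ± 0.22, adjusted p = 0.00912), a call that was lost without GC-PB replicate 2 (adjusted p = 0.0546). The muscle-type Pfkm had 5 molecules in all 15 libraries.

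Tpi1, which interconverts the triose phosphates, was at 14.3, 12.1 and 14.0 in Fraction 2, against 6.89, 6.76 and 6.94 in DZ (0.88 ± 0.17, adjusted p = 0.00323). Fraction 3 was at 8.68, 8.59 and 8.80 and overlapped neither, while Fraction 1, at 16.0, 13.7 and 13.5, overlapped Fraction 2. In GC-PB Tpi1 fell to 3.49, 2.56 and 1.45, or 0.174 times the Fraction 1 mean (-2.18 ± 0.17, adjusted p = 1.07e-09). Aldoa, the aldolase that makes triose phosphates, was at 6.29, 6.50 and 5.99 in GC-PB, against 14.1, 16.2 and 14.0 in Fraction 1 (-1.12 ± 0.15, adjusted p = 4.03e-06). Its rise in Fraction 2 against DZ (0.55 ± 0.15, adjusted p = 0.0472) was called in 8 of 16 other settings. Gpi1, which turns glucose 6-phosphate into fructose 6-phosphate, was at 4.42, 3.77 and 4.96 in GC-PB, against 11.5, 8.51 and 7.23 in Fraction 1 (-0.89 ± 0.15, adjusted p = 9.67e-05). Gpi1 is the enzyme whose mean was highest in DZ, at 11.7 ± 1.25 (SD, n = 3), and none of its earlier steps passed. Its signal was not a whole number of molecules in 9 libraries, as for Gapdh in 10, Eno1 in 8 and Pdk1 in 13. The molecule counts of these 4 genes are therefore uncertain, and the cause was not tested. Aldoc was highest in Fraction 3, with 4 to 7 molecules per library, and passed no step.

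Lower glycolysis makes the pathway's ATP, and 5 of its 6 enzymes were lower in GC-PB than in Fraction 1, where 22.3% of all tested genes were. Gapdh, which oxidises glyceraldehyde phosphate, was at 26.3, 46.9 and 31.7 in GC-PB, against 73.1, 75.4 and 74.1 in Fraction 1 (-1.10 ± 0.13, adjusted p = 8.53e-07). Before that step it was level at equal totals, with 76.8 ± 4.62 in DZ, 77.9 ± 2.41 in Fraction 3, 77.5 ± 2.85 in Fraction 2 and 74.2 ± 1.16 in Fraction 1 (SD, n = 3 each). The interval of its change in Fraction 1 against Fraction 2 was -0.34 to 0.21 at equal totals, while at the deposited scale the change turned to 1.38. GC-PB was the most uneven group for Gapdh, and its highest library was still below every other group.

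Pgam1, phosphoglycerate mutase, was at 24.7, 23.2 and 27.0 in Fraction 1, against 18.5, 16.5 and 17.1 in Fraction 2 (0.50 ± 0.15, adjusted p = 0.0393). The groups did not overlap, but the call was lost whenever 1 of the 6 libraries was left out, at adjusted p of 0.0639 to 0.146. In GC-PB Pgam1 was at 6.05, 7.09 and 4.13, or 0.231 times the Fraction 1 mean (-1.96 ± 0.15, adjusted p = 9.57e-10). Eno1, the enolase of non-muscle cells, was at 2.10, 6.60 and 4.13 in GC-PB, against 13.2, 13.9 and 12.4 in Fraction 1 (-1.52 ± 0.21, adjusted p = 4.43e-06), and its means lay between 10.3 and 13.2 in the first 4 groups. Pkm, the pyruvate kinase of proliferating cells and muscle, was at 12.3, 17.5 and 14.3 in GC-PB, against 29.4, 27.9 and 29.1 in Fraction 1 (-0.94 ± 0.12, adjusted p = 2.91e-06). In Fraction 2 it was at 26.8, 26.4 and 27.4, above all DZ libraries at 21.3, 18.8 and 18.5 (0.44 ± 0.12, adjusted p = 0.0496), a call kept in 5 of 16 other settings. The X-linked Pgk1, which makes the first ATP, was at 5.36, 9.06 and 9.71 in GC-PB, against 15.6, 16.3 and 15.3 in Fraction 1 (-0.93 ± 0.15, adjusted p = 4.14e-05), and its interval in Fraction 1 against Fraction 2 was -0.29 to 0.34. Eno3, the muscle enolase, had at most 4 molecules in a library.

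Ldha, which reduces pyruvate to lactate, had the clearest climb and the deepest drop among the members. It stood at 19.5, 16.8 and 18.1 in DZ, 25.5, 25.4 and 25.9 in Fraction 3, 35.0, 32.9 and 38 in Fraction 2, 59.5, 50.4 and 53.4 in Fraction 1 and 4.42, 6.11 and 5.58 in GC-PB. The libraries of each group from DZ to Fraction 1 lay above all libraries of the group before, which held for no other member and for 30 (0.268%) of all tested genes. The change was 0.48 ± 0.11, adjusted p = 0.0455 in Fraction 3 against DZ, 0.45 ± 0.11, adjusted p = 0.0785 in Fraction 2 against Fraction 3 and 0.61 ± 0.11, adjusted p = 0.00158 in Fraction 1 against Fraction 2, by limma. Over the first 2 of these steps, within libraries on the same side of the Xist divide, it was 0.92 ± 0.11, adjusted p = 3.46e-05. In GC-PB the mean was 0.0986 times that of Fraction 1 (-3.13 ± 0.11, adjusted p = 1.18e-14). The molecules behind these levels numbered 19, 31 and 27 in GC-PB libraries and 506, 469 and 434 in Fraction 1 libraries. The calls in Fraction 2 against DZ, in Fraction 1 against Fraction 2 and in GC-PB against Fraction 1 were kept in all 16 other settings each.

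Slc16a1, a monocarboxylate transporter that carries lactate across the plasma membrane, was at 4.47, 5.37 and 4.56 in Fraction 1, against 2.17, 2.19 and 1.42 in Fraction 2 (0.99 ± 0.25, adjusted p = 0.0149). The groups did not overlap, and the call was lost without Fraction 2 replicate 3 (adjusted p = 0.0790) or Fraction 1 replicate 2 (adjusted p = 0.0635). GC-PB libraries were at 2.33, 1.18 and 0.413, all below Fraction 1 (-1.41 ± 0.25, adjusted p = 0.000108). They spanned the range of the DZ libraries, at 0.961, 1.38 and 1.30, and lay as low as 2 molecules. Slc16a3, a transporter linked to lactate export in strongly glycolytic cells, was listed at 0 in all GC-PB libraries and had at most 3 molecules elsewhere. It passed no step, and at the deposited scale GC-PB against Fraction 1 was called (adjusted p = 0.0483).

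Of the 5 regulators, 2 were lower in GC-PB than in Fraction 1, where 22.3% of all tested genes were, and none passed an earlier step. Hif1a, the oxygen-regulated subunit of the transcription factor that drives glycolytic genes in hypoxia, was at 0.699, 0.591 and 1.24 in GC-PB, against 3.41, 4.19 and 4.92 in Fraction 1 (-1.50 ± 0.18, adjusted p = 6.97e-07). It was highest in Fraction 3, at 5.27 ± 0.621, and averaged 4.46 ± 0.654 in DZ, 4.35 ± 0.625 in Fraction 2 and 4.18 ± 0.756 in Fraction 1 (SD, n = 3 each), and none of its earlier steps passed. Pfkfb3, which makes the fructose bisphosphate that activates phosphofructokinase, was at 0.699, 0.394 and 0.207 in GC-PB, against 1.76, 1.40 and 0.862 in Fraction 1 (-0.70 ± 0.22, adjusted p = 0.0161). That call was lost without Fraction 1 replicate 1 (adjusted p = 0.0821) or GC-PB replicate 3 (adjusted p = 0.0743), and the GC-PB libraries held 1 to 3 molecules. The kinases Pdk1 and Pdk3 switch off pyruvate dehydrogenase. Neither passed a step at equal totals. Their intervals in GC-PB against Fraction 1 were -0.95 to 0.06 for Pdk1 and -0.47 to 0.43 for the X-linked Pdk3. At the deposited scale limma called both lower in that comparison, Pdk1 at -1.09 (adjusted p = 0.00226) and Pdk3 at -0.59 (adjusted p = 0.0353). Pfkfb4 had 5 molecules in all, in Fraction 3 and Fraction 2, and was called in Fraction 3 against DZ only with no filter on low values (adjusted p = 0.0365).

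Of the 5 pyruvate entry genes, 1 was higher in GC-PB than in Fraction 1 and 1 was lower, where 14.1% of all tested genes were higher and 22.3% lower. Mpc2, a subunit of the mitochondrial pyruvate carrier, was at 7.45, 13.6 and 12.2 in GC-PB, against 2.24, 2.79 and 2.09 in Fraction 1. Every GC-PB library lay above all 12 others, the mean level was 4.67 times that of Fraction 1, and the change was 1.81 ± 0.18, adjusted p = 8.91e-08 in limma, called in all 16 other settings with changes of 1.36 to 2.13. Before that step its means stayed between 2.35 and 2.99. Its partner Mpc1, with which it forms the working carrier, was at 3.49, 2.17 and 3.30 in GC-PB, against 2.94, 4.84 and 3.82 in Fraction 1. It did not pass (-0.29 ± 0.20, adjusted p = 0.307, limma), but at the deposited scale it was called lower (-0.94, adjusted p = 0.0011). Of the molecules of both subunits, Mpc2 made up 56.5% ± 4.18 in DZ, 59.6% ± 7.63 in Fraction 3, 49.8% ± 6.38 in Fraction 2, 38.4% ± 4.18 in Fraction 1 and 77.7% ± 9.12 in GC-PB (SD, n = 3 each). The lowest GC-PB library, at 68.1%, was next to the highest Fraction 3 library, at 68.0%.

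Among the pyruvate dehydrogenase genes, Pdha1, the X-linked catalytic subunit of the first enzyme of the complex, was at 1.63, 2.17 and 1.65 in GC-PB, against 4.71, 4.19 and 4.68 in Fraction 1 (-0.98 ± 0.16, adjusted p = 6.40e-05). Pdhb, the other subunit of that enzyme, was at 4.42, 2.36 and 4.13 in GC-PB, against 2.82, 3.22 and 3.32 in Fraction 1 (0.14 ± 0.19, adjusted p = 0.628), and the groups overlapped. Dlat, the acetyltransferase of the complex, was at 0.699, 1.18 and 2.27 in GC-PB, against 2.24, 1.18 and 1.97 in Fraction 1 (-0.26 ± 0.23, adjusted p = 0.417). Of these 3, Pdha1 alone passed at equal totals. At the deposited scale Dlat was also called lower (-0.86, adjusted p = 0.0117, limma). The difference in change between the subunits was not tested.

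By their order over the 5 groups, 12 of the 30 members had a higher mean than the group before at each step from DZ to Fraction 1, as did 8.83% of all tested genes. The mean was highest in Fraction 1 for 16 members, in Fraction 3 for 6, in Fraction 2 for 5, in GC-PB for 2 and in DZ for 1. It was lowest in GC-PB for 16 members, and Pfkfb4 was at 0 in GC-PB, Fraction 1 and DZ alike. These orders were read at equal totals, without a test. No share over all tested genes was taken for the highest or lowest group, so those counts have no background beside them. Slc2a3, Pfkm, Eno3, Slc16a3 and Pfkfb4 were ordered on at most 5 molecules in a library.

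Other genes of glucose metabolism were counted in GC-PB against Fraction 1 from lists that hold no member. Of all tested genes, 14.1% were higher and 22.3% lower in this comparison. Among 17 tested further isoenzymes and regulators of glycolysis, 4 were higher and 1 lower, a smaller share called than the 36.3% of all tested genes. Bsg, the chaperone that brings monocarboxylate transporters to the cell surface, was at 16.7 ± 4.19 in GC-PB, against 4.06 ± 0.682 in Fraction 1 (1.79 ± 0.21, adjusted p = 5.61e-07), while its client Slc16a1 was lower. Pgam5, a mitochondrial phosphatase despite its name, was at 0.688 ± 0.510 in GC-PB, against 3.29 ± 0.630 in Fraction 1 (-1.38 ± 0.21, adjusted p = 2.40e-05). Pgam2, the muscle mutase, was listed at 0 in Fraction 1 and had 0.347 on average in GC-PB. This is near the floor, as 1 molecule was worth 0.197 to 0.233 in GC-PB libraries. Among 12 tested genes of the pentose phosphate pathway, which branches off at glucose 6-phosphate to make NADPH and ribose, 5 were lower and 1 was higher. Tkt (transketolase) was at 1.91 ± 1.14 in GC-PB, against 7.54 ± 0.819 in Fraction 1 (-1.64 ± 0.22, adjusted p = 4.03e-06), and Pgd was at 1.83 ± 0.246, against 5.94 ± 0.944 (-1.29 ± 0.17, adjusted p = 2.58e-06; SD, n = 3 each).

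The TCA cycle, which oxidises the acetyl-CoA made from pyruvate, had 22 tested genes, of which 8 were lower and 3 higher in GC-PB than in Fraction 1, where 22.3% of all tested genes were lower and 14.1% higher. Their median change was -0.09. Idh3a, a subunit of isocitrate dehydrogenase, was at 1.33 ± 0.147 in GC-PB, against 5.48 ± 1.59 in Fraction 1 (-1.45 ± 0.18, adjusted p = 1.62e-06). Fh1, fumarase, was at 1.86 ± 1.20, against 5.68 ± 0.600 (-1.31 ± 0.23, adjusted p = 0.000101). Mdh1, the cytosolic malate dehydrogenase, was counted in this list and is 1 of the 3 higher genes. Its level was 14.0 ± 2.09, against 7.38 ± 0.653 (0.84 ± 0.17, adjusted p = 0.000513). Levels are given ± SD, n = 3 each. Mdh1 was lower in Fraction 1 than in Fraction 2, a call lost whenever 1 of the 6 libraries was left out (adjusted p of 0.0652 to 0.126, limma). The medians of the other lists were -0.04 for the further glycolysis genes and -0.22 for the pentose phosphate pathway, beside -0.06 over all tested genes. In Fraction 1 against Fraction 2, the step that crosses the Xist divide, 1 of the 12 pentose phosphate genes passed. This was Prps1, which makes the ribose donor of nucleotides, and it was higher (1.04 ± 0.32, adjusted p = 0.0449, limma). The call was lost whenever 1 of the 6 libraries was left out (adjusted p of 0.0804 to 0.166).

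**Figure D4:**
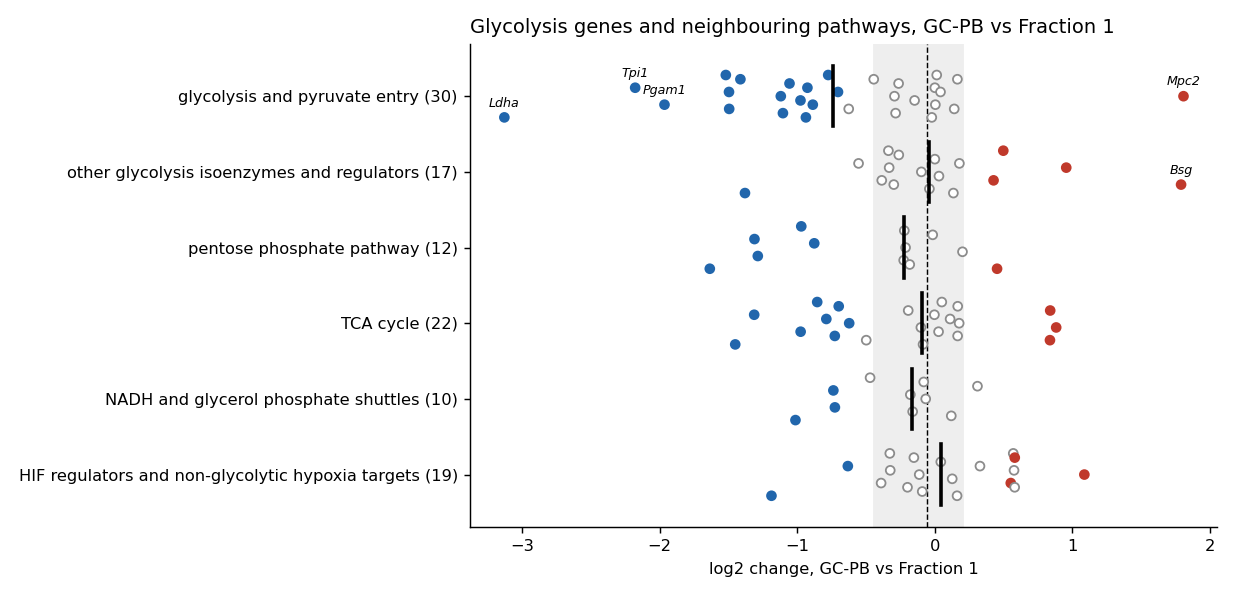
Log2 change in GC-PB against Fraction 1 (x axis) of each tested gene (points) in the glycolysis and pyruvate entry genes and 5 other lists (rows, number tested in brackets); filled points passed an adjusted p of 0.05, red for higher and blue for lower, and short black lines are list medians. The dashed line and grey band are the median (-0.06) and the quartiles (-0.44 to 0.20) over all 11190 tested genes, and the median of the first row is -0.74.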

How the data were processed

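RNA was measured in 15 libraries of 100 sorted cells, in 5 groups taken from the sample titles. Per the labels, an equal amount of spike-in RNA went into each tube, and the authors tagged cDNA with molecular barcodes at an oligo-dT primer, and amplified it by template switching and PCR. Per the submitters' processing notes, TopHat2 and mm10 were used, and the counting step is not given in the sources used here. The deposited table holds a signal per gene. In each library 91.0% to 92.6% of values above 0 were whole multiples of 1 constant (0.105 to 0.362) within a tolerance of 0.02, too few for a count test, so none was run. It holds 0 rows for spike-ins.

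Values were divided by the library total without Rn45s (3.31% to 9.97% of totals) and multiplied by the median total of 38594. Genes above 0 in at least 3 libraries were fitted on log2(level + 1) by limma 3.58.1 (R 4.3.3) with a trend on intensity and all 5 group means in a single model. Tests were two-sided, with Benjamini-Hochberg adjustment over all tested genes, and no value was dropped or imputed. The fit was also run on simulated data with known changes, as a check of the code. That run was not used to judge how small a change could be detected. Alternatives were other scales, pseudocounts, filters, fits and left-out libraries. Gene positions were read from GENCODE on mm10, and upstream sequences from RefSeq on GRCm38.p6, for 31 of 32 members. Figures used Python 3.11.15 and matplotlib 3.10.9.

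The members, the lists and the tests were chosen with earlier results of these data known. Every member is named. Genes of the other lists were taken from up to 3 called genes with the smallest adjusted p in a step, plus marker genes as checks. Not all of these are described. Among those left out, Narf was lower in Fraction 1 than in Fraction 2. In Fraction 2 against DZ, Got2 was higher, and Prps2 and Sdhb were lower. Each of these calls was lost in some fits with a library left out. 1 gene of the germinal centre B cell marker list is not reported here.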

Additional observations from a re-analysis of the deposited data

How the results depend on the processing

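The number of members called in Fraction 3 against DZ, 1 as reported, was 0 at the deposited scale, at median ratios, with a pseudocount of 0.5, without the intensity trend and with the replicate block, 0 in each fit with a library left out, and 2 with no filter on low values. In Fraction 2 against Fraction 3, 0 as reported, it was 5 at the deposited scale and 3 with only the libraries of both groups in the fit. In Fraction 1 against Fraction 2, 4 as reported, it was 24 at the deposited scale and 2 to 3 with a library left out. In GC-PB against Fraction 1, 17 as reported, it was 16 to 18 with a library left out. In Fraction 2 against DZ, 6 as reported, it was 3 to 5 with a library left out. The mean sums of the members in DZ, Fraction 3, Fraction 2, Fraction 1 and GC-PB were 229.8, 253, 284, 354 and 174 at median ratios, and 162, 169, 815 and 204 at the deposited scale for the groups other than Fraction 2. At that scale the sign of the change in Fraction 1 against Fraction 2 reversed, to 1.38 for Gapdh, 1.21 for Hif1a, 0.91 for Mpc2, 1.00 for Pdk1, 0.76 for Pdk3 and 0.55 for Slc2a3 among members, and to 0.43 for Bach2, 0.91 for Cd79b, 0.21 for Cxcr4, 0.051 for Egln2, 0.77 for Mdh1, 0.38 for Ms4a1, 0.77 for Mzb1 and 0.26 for Ptprc among other genes. In GC-PB against Fraction 1 it reversed there to -0.0039 for Cd44 and -0.22 for Cd79b. The cause of these changes was not tested. Of 2381 values of single members under the alternatives, 2182 kept their side of the threshold and their direction. These include members called in no comparison, so the number does not measure how firm the calls are. Of 16 other settings, 5 kept the calls of Ldha in Fraction 3 against DZ and Pkm in Fraction 2 against DZ. In GC-PB against Fraction 1, all 16 kept each call except those of Pfkfb3 (14) and Pfkl (15).

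The labels state no pairing of libraries by replicate number. Deviations from the group means were correlated between libraries of different groups. These correlations were -0.04 to 0.04 for same-numbered libraries and -0.04 to 0.05 for the other pairs. By this measure 5 of 15 libraries correlated best with their own number. With the replicate block, 0 members were called in Fraction 3 against DZ and in Fraction 2 against Fraction 3, 4 in Fraction 1 against Fraction 2, 17 in GC-PB against Fraction 1 and 5 in Fraction 2 against DZ. Slc2a3, Pfkm, Eno3, Slc16a3 and Pfkfb4 held at most 5 molecules in any library, which limits what is detectable at this depth.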

Other observations

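Genes around Hif1a that are not glycolytic enzymes went both ways. Of 19 tested regulators of HIF and hypoxia targets, 3 were higher and 2 lower in GC-PB than in Fraction 1, where 14.1% of all tested genes were higher and 22.3% lower. Their changes ran from -1.19 to 1.09, 10 above 0 and 9 below, with a median of 0.04, beside -0.06 over all tested genes. Fam162a, a hypoxia-induced mitochondrial protein, was at 1.84 ± 0.447 in GC-PB, against 5.43 ± 0.732 in Fraction 1 (-1.19 ± 0.18, adjusted p = 1.64e-05, limma), and in Fraction 2 it was higher than in DZ, at 3.70 ± 0.606, against 1.83 ± 0.359 (0.73 ± 0.18, adjusted p = 0.0238; SD, n = 3 each). The second call was lost without replicate 2 or replicate 3 of either group, at adjusted p of 0.0960 to 0.123. Egln3, a prolyl hydroxylase that marks HIF for degradation, was listed at 0 in Fraction 1. It averaged 0.502 in GC-PB, near the floor, where 1 molecule was worth 0.197 to 0.233. Its relative Egln2 was lower in Fraction 1, at 1.64 ± 0.792, than in Fraction 2, at 4.0 ± 0.525 (-0.97 ± 0.23, adjusted p = 0.0111), a change that had the other sign (0.05) at the deposited scale and was not called without Fraction 2 replicate 2 (adjusted p = 0.0511) or Fraction 1 replicate 3 (adjusted p = 0.0782).

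Shuttles that carry reducing power between cytosol and mitochondrion held 10 tested genes, of which 3 were lower and none higher in GC-PB than in Fraction 1, near the 22.3% of all tested genes that were lower (14.1% were higher). The cytosolic Mdh1, higher in GC-PB, was counted with the TCA cycle and not in this list. Gpd2, the mitochondrial glycerol phosphate dehydrogenase, was at 0.487 ± 0.291 in GC-PB, against 1.98 ± 0.435 in Fraction 1 (-1.01 ± 0.21, adjusted p = 0.000511). Got1, the cytosolic aspartate aminotransferase, was higher in Fraction 1, at 1.82 ± 0.656, than in Fraction 2, at 0.473 ± 0.431 (0.96 ± 0.27, adjusted p = 0.0279), which did not pass when Fraction 1 replicate 2, Fraction 2 replicate 2 or Fraction 2 replicate 3 was removed (adjusted p of 0.0585 to 0.164). Gpd1l was lower in Fraction 2, at 1.08 ± 0.259, than in DZ, at 4.29 ± 0.586 (-1.35 ± 0.21, adjusted p = 0.000371; SD, n = 3 each).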
